A study of Homo sapiens with 16 samples.

Results

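Interferon-stimulated genes are the genes that cells switch on after type I interferon, and 45 of them were followed here across 16 RNA-seq libraries of U2OS cells. The 45 were taken by name from the deposited expression table of 58735 genes, matched to gene symbols through GENCODE release 29, and no measured value entered the choice. U2OS is an established human osteosarcoma line, so every group is a state of 1 line. All cells were transfected, either with a non-targeting control siRNA (siNT) or with an siRNA against SETD2 (siSETD2), a histone H3 methyltransferase of transcribed genes. At 48 h after transfection the cells were left without drug (untreated) or received 2 mM hydroxyurea (HU), 2 µM VE-822, or 2 mM HU with 2 µM VE-822, for 4 h. HU blocks ribonucleotide reductase, so that forks stall for want of deoxynucleotides, and VE-822 is an inhibitor of ATR, the kinase that answers stalled forks. Each of the 8 groups had 2 libraries, numbered R1 and R2, and the question the design poses for these genes is whether the drugs, the loss of SETD2, or both together move them. Nothing in the labels tells whether R1 and R2 came from separate cultures, and the p-values then measure no more than the spread between libraries, which can be technical.

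Type I interferon binds a receptor on the cell surface, and the JAK kinases then activate transcription factors. STAT2 and IRF9 belong to a complex that enters the nucleus and binds interferon response elements in the promoters of the induced genes. RNA and DNA sensors in the cytosol can start the same program by inducing interferon, and the factors they activate can also induce some of the genes, the IFIT genes among them, without it. The products act at many steps of a virus's life: DDX58 (RIG-I) and IFIH1 (MDA5) sense RNA, the IFIT and OAS proteins act on foreign RNA and its translation, the IFITM proteins and BST2 act at membranes, and ISG15 is a ubiquitin-like tag.

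The 16 libraries did not fall only by treatment. The 6 groups without VE-822 alone split by replicate number: the difference R1 minus R2 correlated across genes at 0.36 to 0.75 in all 15 pairs of these groups. The 4 libraries of VE-822 alone formed a set of their own, in which the numbers did not follow those of the others (-0.05 to 0.30 in 12 pairs). A difference between VE-822 alone and any other group therefore cannot be told apart from a difference between these sets of libraries. The knockdown check was SETD2 itself, at 7.34 to 9.25 FPKM (fragments per length of exon and library depth, as deposited) in the 8 siNT libraries and at 2.01 to 4.63 FPKM in the 8 siSETD2 libraries. Of the markers of a bone or mesenchymal line, 5 of 8 passed the expression filter, and COL1A2, ALPL and BGLAP did not. RUNX2, the bone lineage factor, rose with VE-822 alone (5.85 to 6.91 FPKM, 0.833 to 1.91 FPKM in the 12 other libraries, log2 fold change 1.67 from untreated, adjusted p = 3.88e-05), and VIM fell (77.3 to 99.2 FPKM against 106 to 167 FPKM, -0.59, adjusted p = 0.0197). COL1A1, SPARC and CDH2 were tested and not called (0.26, -0.17 and -0.13, adjusted p = 0.782, 0.703 and 0.702). Summed over 12 leukocyte markers, levels were 2.93 to 4.75 FPKM in the 12 other libraries and 6.15 to 9.36 FPKM with VE-822 alone, of which CD3D and ITGAM rose against untreated (0.60 and 0.78 on the log2 scale). HLA-DRA, below the filter, was at 0.759 to 1.05 FPKM with VE-822 alone and at most 0.227 FPKM elsewhere. Of the defining markers, PTPRC was at 0.0129 to 0.102 FPKM with VE-822 alone and at most 0.0292 FPKM elsewhere, and CD3E was at 0 with VE-822 alone and at most 0.0138 FPKM elsewhere. The 4 markers of plasmacytoid dendritic cells, the main interferon producers of blood, summed to 1.18 to 2.16 FPKM and, with VE-822 alone, to 3.39 to 5.05 FPKM. Among them IL3RA rose with VE-822 alone (2.58 to 4.22 FPKM, 0.732 to 1.47 FPKM elsewhere, log2 fold change 1.18 from untreated, adjusted p = 0.000213). TCF4, below the filter, was at 0.758 to 0.951 FPKM with VE-822 alone and at 0.393 to 0.9445 FPKM elsewhere. LILRA4 was at 0 in every library and CLEC4C at most 0.0506 FPKM. Epithelial markers summed to 52.6 to 61.1 FPKM with VE-822 alone and to 70.0 to 116.5 FPKM elsewhere. Among them KRT18 fell (34.1 to 41.3 FPKM against 56.8 to 99.4 FPKM, log2 fold change -1.03 from untreated, adjusted p = 0.000107). KRT8 and EPCAM were tested and not called (-0.06 and -0.07, adjusted p = 0.902 and 0.530). Erythroid and endothelial markers never exceeded 0.700 FPKM in sum. The part of these marker shifts in the results was not tested.

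Of the 45 genes, 32 reached a mean of 1 FPKM across the libraries and were tested, among 13088 genes in all, and 13 lay below that level. LGALS3BP, a secreted galectin-binding glycoprotein, had the highest mean, 145 FPKM. It was followed by IFITM3, which blocks the entry of viruses through endosomes, at 63.5 FPKM, and by IFI6, a small membrane protein of mitochondria and the endoplasmic reticulum, at 40.2 FPKM. IFI44, IFIT3 and ISG15 came next at 35.4, 29.9 and 26.2 FPKM. The 13 genes below the filter included the dynamin-like GTPases MX1 and MX2, which trap viral nucleocapsids. MX1 ran from 0.0108 to 0.130 FPKM and MX2 from 0.0117 to 0.162 FPKM. EPSTI1 had 2 fragments in 1 library and none in the other 15, and XAF1 had at most 5 fragments in a library. At the edge of the filter stood IRF9, the DNA-binding partner of STAT2, at 0.997 FPKM just outside, and OAS1, SAMD9 and USP18 at 1.07, 1.07 and 1.08 FPKM just inside. IRF7, the factor that amplifies interferon production, never exceeded 0.396 FPKM.

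Some of these genes share sequence or exons with a neighbour, which makes their values uncertain. Of the 31-base stretches of IFITM1, IFITM2 and IFITM3, 35.3%, 45.2% and 56.0% also occur in another gene. For USP18 the share was 30.8%, mostly with USP41, and for IRF9 50.3%, mostly with an overlapping gene model. An antisense transcript overlies most of the 20.9% of SP110 exon bases that another gene's exons cover, and use of strand in counting is not given in the sources used here. PARP9 and DTX3L lie head to head on chromosome 3 and 3.70% of the DTX3L exon bases overlap exons of another gene, mostly PARP9.

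Many of the genes shared a feature of their promoters. No sequence was used to pick them, but they were listed as interferon-induced, so a high share of this element is no independent result. The core of the interferon response element, GAAANNGAAA, was searched on both strands from 250 bases before to 50 bases after each annotated start in RefSeq (GRCh38.p14). Of the 37 genes found in that table, 26 (70.3%) held it in at least 1 window, against 4.38% of all 27305 genes. IFIT2, IFITM2, IRF7, MX2, OAS2, OASL, USP18 and DHX58 were not matched. Among the tested genes 21 of 28 held the motif. Windows of DDX58, HERC6, IFI35, OAS1, SP110, STAT2 and TRIM25 did not contain these letters. The stretches below are shown as examples of the motif in genes called in at least 1 of the comparisons that follow, and they were chosen with those values known. Each is written 5′ to 3′ on the strand of its gene, with every full copy of the motif, on either strand, in capitals. Overlapping copies run together.

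IFIT1: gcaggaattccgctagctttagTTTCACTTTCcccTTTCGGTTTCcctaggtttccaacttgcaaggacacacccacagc
IFIT3: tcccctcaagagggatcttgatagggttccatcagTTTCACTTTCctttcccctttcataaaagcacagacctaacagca
IFI44: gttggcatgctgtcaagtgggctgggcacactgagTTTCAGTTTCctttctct
DDX60: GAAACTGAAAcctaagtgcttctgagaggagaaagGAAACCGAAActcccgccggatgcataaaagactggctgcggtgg
BST2: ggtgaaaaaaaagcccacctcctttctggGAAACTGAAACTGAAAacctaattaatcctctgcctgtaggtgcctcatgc
ISG15: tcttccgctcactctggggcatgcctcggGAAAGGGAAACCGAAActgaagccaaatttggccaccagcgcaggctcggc
PARP9: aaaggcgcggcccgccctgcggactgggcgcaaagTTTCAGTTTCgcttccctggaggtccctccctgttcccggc
IFI6: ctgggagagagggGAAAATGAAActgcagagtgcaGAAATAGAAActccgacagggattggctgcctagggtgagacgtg
IFIH1: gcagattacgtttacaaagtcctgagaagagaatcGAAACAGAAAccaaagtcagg

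These stretches lie at chr10:89392485-89392564 (IFIT1, plus strand), chr10:89332443-89332522 (IFIT3, plus), chr1:78649736-78649788 (IFI44, plus), chr4:168318761-168318840 (DDX60, minus) and chr19:17405710-17405789 (BST2, minus). The other 4 lie at chr1:1013355-1013434 (ISG15, plus), chr3:122564301-122564376 (PARP9, minus), chr1:27672241-27672320 (IFI6, minus) and chr2:162318685-162318740 (IFIH1, minus). IFIT1, IFIT3, IFI44 and PARP9 carry the motif on the opposite strand, and BST2 and ISG15 carry overlapping copies. The single motif of the PARP9 window, at chr3:122564332-122564341, is also the one in the window of DTX3L, so these 2 genes share it. It lies before the annotated start of PARP9 and spans that of DTX3L, with its centre at -1.

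**Figure D1:**
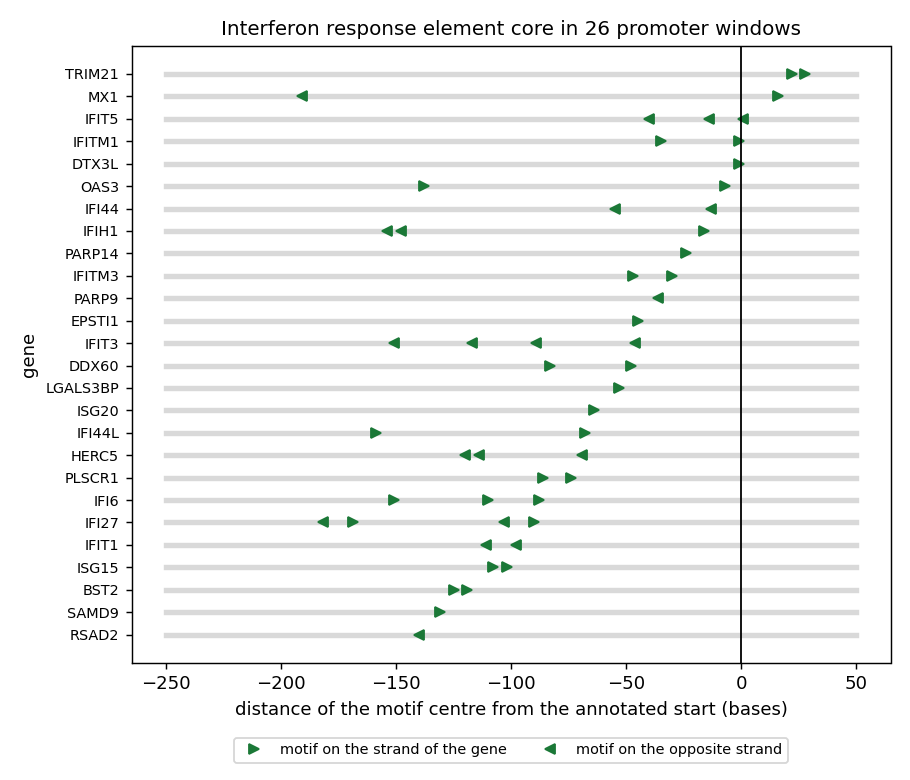
Distance in bases of each copy of GAAANNGAAA from the annotated start of its gene, for the 26 genes whose RefSeq window holds one. Grey bars span the window searched, from 250 bases before to 50 bases after the start, and arrowheads give the strand of the motif relative to the gene. Most copies lie before the start. Those of TRIM21 and a copy of MX1 (centred at 16) lie after it, and copies of DTX3L, IFITM1 and IFIT5 (centred at -1, -1 and 1) span it.

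With VE-822 alone IFIT2, IFIT3, OASL, BST2, IFI44, RSAD2 and the PARP9 locus rose. Against untreated cells, averaged over both siRNAs, 16 of the 32 tested genes rose (limma on log2(FPKM + 1), Benjamini-Hochberg adjusted p under 0.05 over all 13088 genes) and none fell. Over all genes tested, 11.4% were called higher and 13.4% lower. Of the 32, 12 lay above all 12 other libraries with VE-822 alone, beside 8.12% of all genes. The members' median log2 fold change was 0.51, with 29 of 32 above 0, and the median of all genes was -0.03. An unadjusted p under 0.05 was reached by 19 members in either direction, and a fit to recovered fragment counts (limma-voom) also called 16 higher and 0 lower. Since the untreated R1 and R2 libraries differ, the 4 VE-822 libraries were also set against each pair of untreated libraries alone. All 16 called genes lay above both untreated R1 libraries and above both untreated R2 libraries, with no overlap. The same libraries gave the calls, so this separation is no independent support for them. Over the 32 genes the median difference was 0.37 from R1 and 0.76 from R2, and 18 and 26 genes lay wholly above (25.3% and 23.2% of all genes). In bulk RNA, more cells with a transcript and more transcript per cell cannot be told apart.

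**Figure D2:**
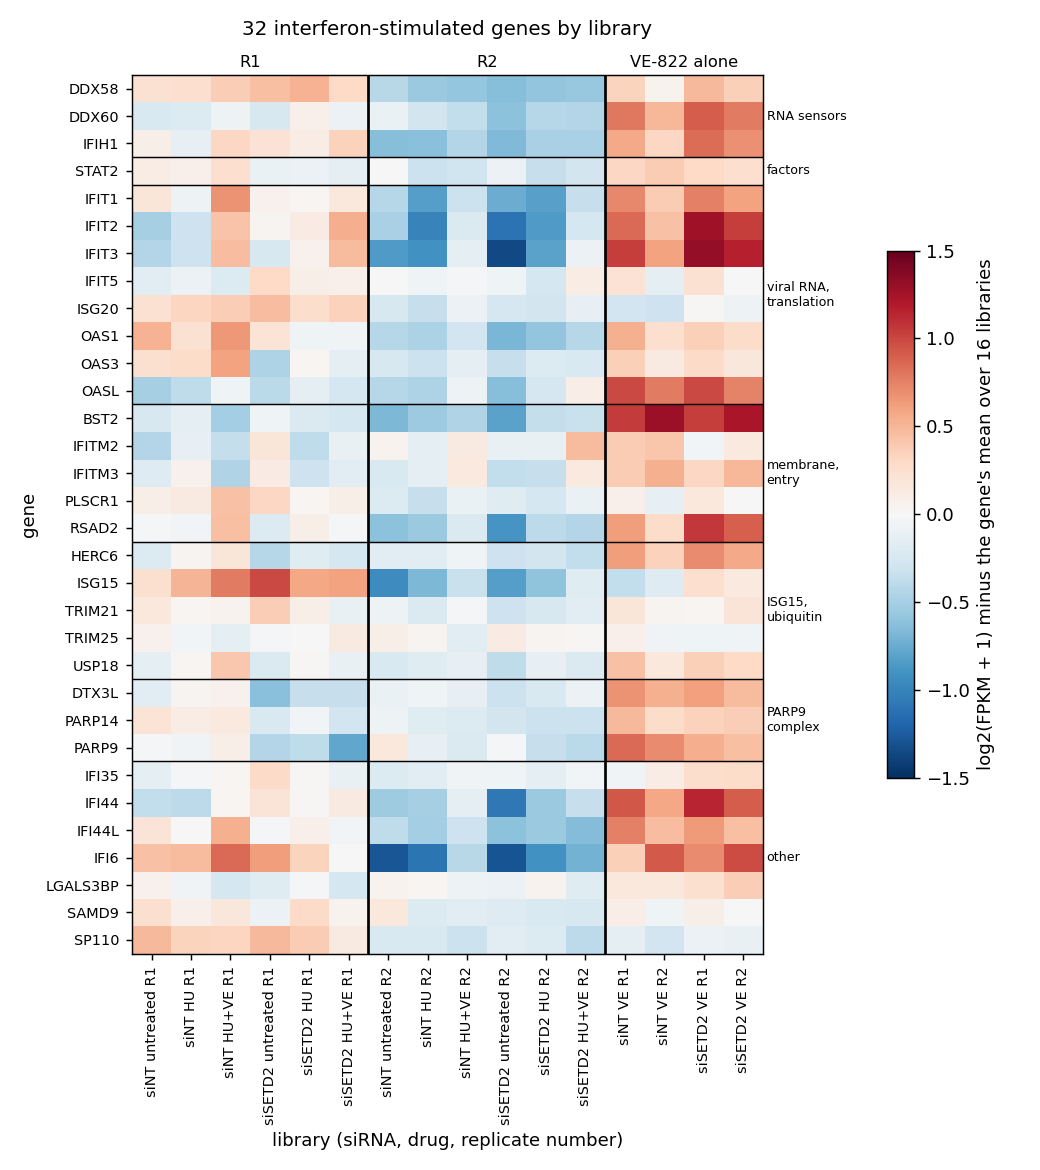
Level of the 32 tested genes (rows, grouped by role) in the 16 libraries (columns, grouped into the R1, R2 and VE-822-alone sets), as log2(FPKM + 1) minus the gene's mean over all libraries. Red is above and blue below that mean. The IFIT rows other than IFIT5, and the IFI44 and RSAD2 rows, are bluest in R2, lighter or pale in R1 and reddest with VE-822 alone. OASL, BST2, DTX3L and PARP9 are red with VE-822 alone and pale or blue in the other 2 sets.

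Of the genes against viral RNA and its translation, 3 of 8 tested were called, among them IFIT3, whose fold change was the largest of the 32. In the lists of library values that follow, the R1 value comes before the R2 value. IFIT3, which binds and stabilises IFIT1, stood at 18.9 and 13.9 FPKM in untreated siNT cells and at 21.7 and 9.54 FPKM in untreated siSETD2 cells, against 54.3 and 39.7 FPKM and 66.1 and 59.2 FPKM with VE-822. The 4 VE-822 libraries were thus above all 12 others, whose highest value was 36.3 FPKM. IFIT3 rose by a log2 fold change of 1.75 (SE 0.285, adjusted p = 0.00192). IFIT2, a partner of the same complex, held 7.50 and 7.58 FPKM (siNT) and 11.4 and 4.61 FPKM (siSETD2) untreated, and 20.7 and 15.3 FPKM and 28.0 and 23.8 FPKM with VE-822. It rose by 1.41 on the log2 scale (SE 0.309, adjusted p = 0.00862). OASL, a relative of the OAS enzymes that enhances RIG-I signalling, was even between replicates, at 2.59 and 2.79 FPKM and 2.85 and 2.26 FPKM untreated, and 9.13 and 7.69 FPKM and 9.11 and 7.48 FPKM with VE-822. Its fold change of 1.37 had the smallest adjusted p of the 32 genes (SE 0.105, adjusted p = 1.98e-05).

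The remaining genes of this group moved less. IFIT1, which binds RNA with a foreign 5′ end, had 4.88 and 2.85 FPKM and 4.42 and 2.09 FPKM untreated, against 7.51 and 5.72 FPKM and 7.73 and 6.87 FPKM with VE-822. The groups did not overlap, but the log2 fold change of 0.84 missed the threshold (SE 0.296, adjusted p = 0.0595) and passed it once replicate number was a block in the 6 groups (adjusted p = 5.97e-05). OAS1 and OAS3, which make the signal that activates RNase L, had fold changes of 0.45 and 0.44 that were called with that block and not without a block (adjusted p = 0.28 and 0.0976 without, 0.00818 and 0.0172 with it). OAS1 was at 1.85 and 0.479 FPKM and 1.29 and 0.230 FPKM untreated, and at 1.87 and 1.37 FPKM and 1.54 and 1.40 FPKM with VE-822. OAS3 was at 3.63 and 2.33 FPKM and 1.85 and 2.09 FPKM untreated, and at 4.01 and 3.31 FPKM and 3.78 and 3.43 FPKM with VE-822. For OAS1 the VE-822 libraries stood above the untreated R2 libraries and overlapped the untreated R1 ones. IFIT5, next to IFIT1 on chromosome 10 (chr10:89414586-89421001 in GRCh38), had a fold change of 0.07 (SE 0.122, adjusted p = 0.718), and its levels of 4.18 to 6.63 FPKM overlapped between all sets. IFIT2, IFIT3 and IFIT1 lie beside it in the interval from 89283694 to 89406486.

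Among the RNA sensors, DDX60, a helicase that assists RIG-I, held 2.66 and 2.99 FPKM and 2.65 and 1.81 FPKM untreated, and 6.45 and 5.07 FPKM and 7.08 and 6.39 FPKM with VE-822. The VE-822 libraries were above all 12 others, and DDX60 rose by 1.04 (SE 0.142, adjusted p = 0.000675). IFIH1 had 2.27 and 0.977 FPKM and 2.57 and 0.946 FPKM untreated, so that R1 was more than R2, and 3.58 and 2.83 FPKM and 4.52 and 3.94 FPKM with VE-822. Its rise of 0.85 was close to the threshold (SE 0.279, adjusted p = 0.0461). DDX58 stood at 9.92 and 6.04 FPKM and 11.8 and 5.02 FPKM untreated and at 10.8 and 8.72 FPKM and 12.1 and 11.02 FPKM with VE-822. Those VE-822 values overlap the R1 libraries and lie above the R2 libraries, and the fold change of 0.40 was called only with the block (SE 0.350, adjusted p = 0.420 without, 0.00480 with it). STAT2, the one tested factor of the interferon-activated complex in the list, was at 13.7 and 12.6 FPKM and 11.7 and 11.8 FPKM untreated and at 15.9 and 16.8 FPKM and 15.8 and 15.3 FPKM with VE-822. The groups did not overlap, and the change of 0.33 was called with the block and not without it (SE 0.129, adjusted p = 0.0812 without, 0.0106 with it).

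Membrane and entry factors were split. BST2 (tetherin), which holds budding virions on the cell surface, stood at 2.86 and 1.86 FPKM and 3.35 and 1.61 FPKM untreated and at 8.42 and 10.05 FPKM and 8.31 and 9.65 FPKM with VE-822. No other library passed 3.35 FPKM, and BST2 rose by 1.59 (SE 0.163, adjusted p = 0.000124). RSAD2 (viperin), a radical SAM enzyme that makes a chain-terminating nucleotide, was at 1.54 and 0.688 FPKM and 1.25 and 0.398 FPKM untreated and at 3.002 and 2.14 FPKM and 4.39 and 3.84 FPKM with VE-822. It rose by 1.15 (SE 0.228, adjusted p = 0.00521). IFITM3, at 54.2 and 52.7 FPKM and 67.5 and 47.7 FPKM untreated and 80.8 and 90.2 FPKM and 76.8 and 88.0 FPKM with VE-822, rose by 0.60 (SE 0.152, adjusted p = 0.0174). IFITM2 and the scramblase PLSCR1 had fold changes of 0.30 and 0.02 (adjusted p = 0.201 and 0.924). IFITM1, below the filter and untested, ran from 2.14 to 2.59 FPKM with VE-822 alone (60 to 72 fragments) and from 0.29 to 0.601 FPKM (8 to 19 fragments) in the 12 other libraries, a gene named after its values were seen.

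The ISG15 system moved unevenly. HERC6, a HECT-family ligase, held 1.79 and 1.85 FPKM and 1.39 and 1.59 FPKM untreated and 3.97 and 3.10 FPKM and 4.26 and 3.76 FPKM with VE-822, above all 12 others. It rose by 0.84 (SE 0.0960, adjusted p = 0.000233). USP18, which removes ISG15 and damps the interferon receptor, was at 0.860 and 0.742 FPKM and 0.760 and 0.572 FPKM untreated and at 1.78 and 1.28 FPKM and 1.61 and 1.52 FPKM with VE-822. Its rise was 0.56 (SE 0.125, adjusted p = 0.00963). ISG15 itself, the tag, was at 28.7 and 12.1 FPKM and 48.6 and 13.1 FPKM untreated and at 18.5 and 21.0 FPKM and 28.9 and 26.8 FPKM with VE-822. Its change of 0.10 had a wide error (SE 0.467, adjusted p = 0.896), since the VE-822 mean lay 0.65 below the untreated R1 libraries (a log2 difference of -0.65) and 0.85 above the R2 libraries. The ubiquitin ligases TRIM21 and TRIM25 had fold changes of 0.08 and -0.08 (adjusted p = 0.725 and 0.408).

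PARP9, DTX3L and PARP14, neighbours on chromosome 3 between 122527924 and 122730840 (GRCh38), rose together. PARP9 and the ligase DTX3L form a complex that modifies chromatin, and PARP14 is a mono-ADP-ribosyltransferase. DTX3L was at 7.50 and 7.90 FPKM and 5.16 and 6.61 FPKM untreated and at 14.2 and 12.7 FPKM and 13.5 and 12.2 FPKM with VE-822, a rise of 0.87 (SE 0.0982, adjusted p = 0.000220). PARP9 was at 2.88 and 3.42 FPKM and 1.93 and 2.87 FPKM untreated and at 6.15 and 5.49 FPKM and 4.77 and 4.41 FPKM with VE-822, a rise of 0.72 (SE 0.118, adjusted p = 0.00195). PARP14 was at 7.18 and 5.74 FPKM and 5.06 and 4.87 FPKM untreated and at 8.95 and 7.64 FPKM and 8.04 and 8.20 FPKM with VE-822, a rise of 0.47 (SE 0.113, adjusted p = 0.0138). For all 3 the 4 VE-822 libraries were above every one of the other 12.

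Of the other induced genes, IFI44 held 24.6 and 21.9 FPKM and 37.0 and 14.8 FPKM untreated and 62.4 and 48.6 FPKM and 72.5 and 61.2 FPKM with VE-822. It rose by 1.34 (SE 0.244, adjusted p = 0.00348). Its neighbour IFI44L, at 1.97 and 1.01 FPKM and 1.55 and 0.698 FPKM untreated and 3.39 and 2.59 FPKM and 3.04 and 2.56 FPKM with VE-822, rose by 0.78 (SE 0.248, adjusted p = 0.0404). Both genes lie on chromosome 1 between 78619922 and 78664078. LGALS3BP, at 150.7 and 148.6 FPKM and 126 and 135 FPKM untreated and 160.1 and 160.2 FPKM and 170.4 and 186 FPKM with VE-822, rose by 0.27 (SE 0.0846, adjusted p = 0.0390). IFI6 was at 47.8 and 13.8 FPKM and 54.4 and 13.7 FPKM untreated and at 44.995 and 67.2 FPKM and 57.8 and 70.0 FPKM with VE-822, so its VE-822 values overlapped R1 and lay far above R2. The change of 1.12 was called with the block and not without it (SE 0.551, adjusted p = 0.158 without, 0.000662 with it). IFI35 and SAMD9 had fold changes of 0.18 and 0.00 (adjusted p = 0.166 and 1).

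SP110 and ISG20 were called lower once the block was used. SP110, a nuclear body protein, was at 2.62 and 1.20 FPKM and 2.64 and 1.32 FPKM untreated and at 1.34 and 1.12 FPKM and 1.44 and 1.40 FPKM with VE-822 (log2 fold change -0.30, SE 0.239, adjusted p = 0.376 without and 0.00390 with the block). ISG20, a 3′ to 5′ exonuclease, was at 1.54 and 0.836 FPKM and 1.98 and 0.827 FPKM untreated and at 0.771 and 0.743 FPKM and 1.20 and 1.06 FPKM with VE-822 (log2 fold change -0.22, SE 0.218, adjusted p = 0.492 and 0.0345). Both lay below the untreated R1 libraries and overlapped the untreated R2 libraries, with log2 differences of -0.64 (SP110) and -0.51 (ISG20) from R1 and of 0.04 and 0.08 from R2. With the block 22 members were called higher and 2 lower, beside 20.7% and 24.2% of all genes. That block leaves the VE-822-alone libraries outside it, so they are set against the mean of R1 and R2. The R1 minus R2 difference is then taken out of the error. Adjusted p-values of VE-822 alone against untreated with that block therefore leave out the spread between sets of libraries. A block on replicate number over all 8 groups called 21 higher and 0 lower, beside 18% and 21.1% of all genes, and SP110, ISG20 and DDX58 were not called in it (adjusted p = 0.0703, 0.176 and 0.0650). The 16 calls made without it were not equally firm. IFIH1 lost its call without any 1 of 8 libraries (both siNT HU, all 4 VE-822, and both untreated R2; adjusted p = 0.0542 to 0.137). IFI44L lost it without any 1 of 6 (the 4 VE-822 and both untreated R2; 0.0756 to 0.118), and IFITM3 without the R2 VE-822 library of siNT (0.0639) or of siSETD2 (0.0673). PARP14 lost it without siNT VE-822 R1 (0.0527), and LGALS3BP without any 1 of 13, namely all but untreated siSETD2 R2 and both siNT HU with VE-822 (0.0509 to 0.138).

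**Figure D3:**
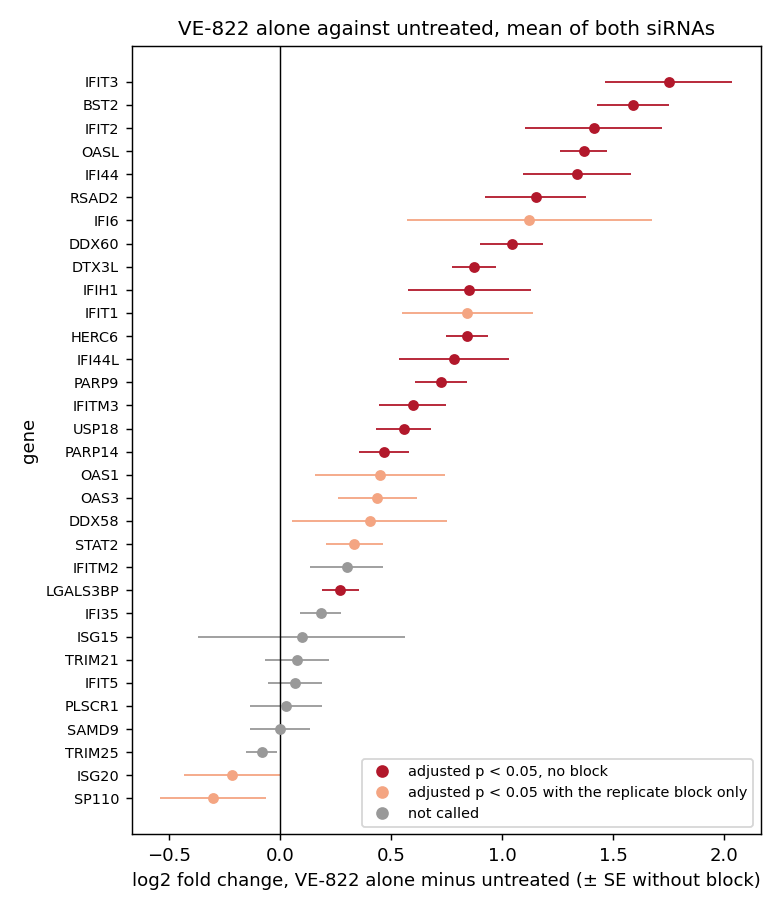
Log2 fold change of VE-822 alone against untreated, averaged over both siRNAs, for the 32 tested genes. Bars are standard errors of the fit without a block, dark red marks adjusted p under 0.05 in that fit (16 genes), pale orange marks genes called only with the replicate block, and grey marks genes not called. The largest change is that of IFIT3, 1.75, and SP110 has the lowest, -0.30.

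Most of these genes were higher in R1 than in R2 libraries. In the 6 groups without VE-822 alone, the block term was called higher in R1 for 21 of 32 members and lower for none, where 19.2% of all genes were higher and 22% lower (23 members had an unadjusted p under 0.05 in either direction). Of the 32, 17 were higher in R1 in all 6 groups, beside 17.5% of all genes, and none was lower in all 6, beside 19.2%. This comparison was added after the libraries were seen to split by number. IFI6 had the largest difference, 1.40 on the log2 scale (SE 0.150, adjusted p = 5.14e-05), with R1 from 34.98 to 63.5 FPKM (median 48.4) and R2 from 13.7 to 25.96 FPKM (median 17.0). ISG15 followed at 1.21 (SE 0.105, adjusted p = 1.27e-05), with R1 from 28.7 to 48.6 FPKM (median 36.9) and R2 from 12.1 to 21.1 FPKM (median 15.1). DDX58 had 0.91 (SE 0.0748, adjusted p = 9.43e-06), with R1 from 9.92 to 12.4 FPKM and R2 from 5.02 to 6.04 FPKM. In these 3 genes no R1 library overlapped an R2 library. They were among 11 of the 32 members with R1 wholly above R2, and 0 lay wholly below. Of all genes, 7.24% lay wholly above and 7.88% wholly below.

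**Figure D4:**
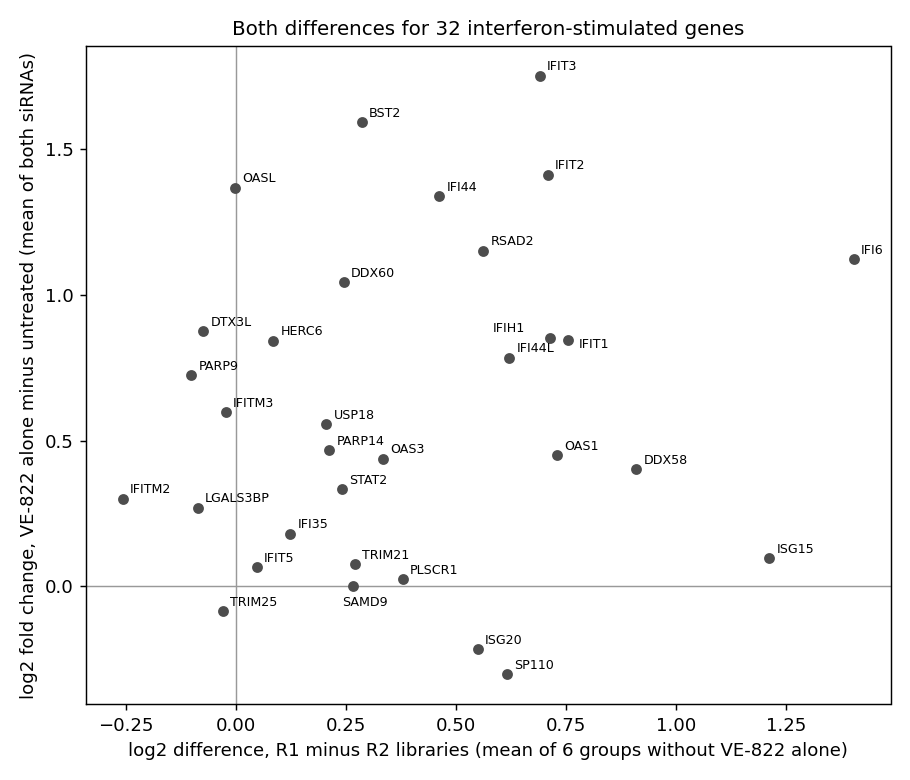
For each tested gene, the log2 difference between R1 and R2 libraries (horizontal, 6 groups without VE-822 alone) and the log2 fold change of VE-822 alone against untreated (vertical, mean of both siRNAs). Both axes use the untreated libraries. ISG15, ISG20 and SP110 lie at the right near or below 0, OASL, PARP9, DTX3L and IFITM3 lie near 0 on the horizontal axis and above 0 on the vertical, and the IFIT genes are high on both, except IFIT5.

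The VE-822-alone libraries took different places beside those 2 sets from gene to gene. IFIT3, IFI44, BST2 and DDX60 were called higher in R1 than in R2 (differences of 0.69, 0.46, 0.29 and 0.25) and were higher still with VE-822 alone. OASL, DTX3L, PARP9, HERC6 and IFITM3 had R1 minus R2 differences of 0.00, -0.07, -0.10, 0.08 and -0.02 (adjusted p from 0.361 to 0.985) and rose with VE-822 alone. ISG20 and SP110 differed between R1 and R2 by 0.55 and 0.62, and their VE-822-alone medians of 0.913 and 1.37 FPKM were near the R2 medians of 0.831 and 1.20 FPKM, not the R1 medians of 1.73 and 2.32 FPKM. OAS2, below the filter and named after its values were seen, ran from 0.586 to 2.39 FPKM in R1 (93 to 441 fragments), from 0.0976 to 0.358 FPKM in R2 (15 to 48 fragments), and from 0.584 to 0.900 FPKM with VE-822 alone.

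With hydroxyurea alone none of these genes was called. Against untreated cells, averaged over both siRNAs, 0 of 32 had an adjusted p under 0.05 or an unadjusted p under 0.05, by limma on log2 values and by limma-voom alike, and with the block 1 had an unadjusted p under 0.05. Of all genes, 0.0382% were called higher and 0.0688% lower. The median of the members was -0.01 and that of all genes 0.01, and no member had groups without overlap (2.11% of all genes did so higher and 2.19% lower). DTX3L, HERC6 and USP18 were higher with HU in all 4 same-numbered pairs, beside 13.4% of all genes, and IFIT1 was lower in all 4, beside 11.1%. The fold changes of DTX3L and HERC6 were 0.15 and 0.13 (SE 0.0982 and 0.0960).

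Hydroxyurea with VE-822 against untreated gave calls with the block in 6 groups, for IFIT3, IFIT2, OASL and RSAD2, of which IFIT3 alone was called in all 3 blocked fits. Without the block 0 of 32 were called (2 had an unadjusted p under 0.05, and limma-voom called 0), beside 0.0229% of all genes higher and 0.0153% lower. With replicate number as a block in the 6 groups, 4 were called higher and 0 lower (10 at an unadjusted p under 0.05), beside 4.07% and 3.23% of all genes. The block over all 8 groups called IFIT3 alone (adjusted p = 0.0143; 1.74% of all genes higher), and a block fitted without the VE-822-alone libraries called IFIT3 and RSAD2 (adjusted p = 0.0144 and 0.0406; 1.71%). IFIT3 stood at 36.1 and 23.4 FPKM in siNT and 36.3 and 24.3 FPKM in siSETD2 with both drugs, above all 4 untreated libraries. Its log2 fold change was 0.90 (SE 0.285, adjusted p = 0.204 without the block, 0.00474 with it). OASL, at 3.84 and 3.84 FPKM and 3.23 and 4.46 FPKM, also lay above every untreated library, with a fold change of 0.42 (SE 0.105, adjusted p = 0.120 and 0.0353). IFIT3 and OASL were the only tested members without overlap here, and 4% of all genes were so, higher.

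IFIT2 was at 15.2 and 9.33 FPKM and 16.6 and 9.03 FPKM with both drugs, a fold change of 0.64 from untreated (SE 0.309, adjusted p = 0.400 without and 0.0411 with the block). RSAD2 was at 2.54 and 1.24 FPKM and 1.57 and 0.906 FPKM, a fold change of 0.38 (SE 0.228, adjusted p = 0.493 and 0.0309). The both-drug R2 libraries of IFIT2 overlapped the untreated R1 libraries and those of RSAD2 lay below them, but for both genes each library was above the untreated one of its own number and siRNA. BST2, the second largest rise with VE-822 alone, had 2.19 and 2.34 FPKM and 2.79 and 2.599 FPKM with both drugs, within the untreated range (fold change 0.05, SE 0.163, adjusted p = 0.922). HERC6, DDX60 and DTX3L had fold changes of 0.15, 0.05 and 0.18 (adjusted p = 0.528, 0.906 and 0.456). Without the untreated siSETD2 R1 library the unblocked fit called IFIT3 (1.17, adjusted p = 0.0487) and OASL (0.48, adjusted p = 0.0495).

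Adding VE-822 to hydroxyurea gave calls for IFIT3 and IFIT1 in 1 of the 3 blocked fits, that in 6 groups, in a comparison that shares the both-drug libraries with the one above. IFIT3 was at 20.6 and 13.3 FPKM in siNT and 27.0 and 14.4 FPKM in siSETD2 with HU alone, and higher with both drugs in all 4 pairs, by 0.41 to 0.78 on the log2 scale. The fold change of 0.67 was called only with the block (SE 0.285, adjusted p = 0.565 without, 0.0345 with it). IFIT1 went from 3.92 and 1.92 FPKM and 4.30 and 1.93 FPKM with HU to 7.24 and 3.14 FPKM and 4.80 and 3.09 FPKM with both, a fold change of 0.46 (SE 0.296, adjusted p = 0.754 and 0.0456). IFIT2, at 8.72 and 5.02 FPKM and 12.1 and 5.68 FPKM with HU, had 0.63 (SE 0.309, adjusted p = 0.651 and 0.0833). Without the block 0 members were called (3 at an unadjusted p under 0.05, 0 by limma-voom), beside 0.00764% of all genes higher and 0% lower. With it 2 were called higher and 0 lower (7 at an unadjusted p under 0.05), beside 0.703% and 0.611%. Neither was called with the block over all 8 groups (adjusted p = 0.0781 for IFIT3 and 0.172 for IFIT1) or with the block fitted without the VE-822-alone libraries (0.0557 and 0.0832). IFI44, IFIH1, IFIT1, IFIT2, IFIT3, ISG15, ISG20, OAS1 and PLSCR1 were higher in all 4 pairs, beside 17.7% of all genes, and LGALS3BP and SP110 were lower in all 4, beside 16.5%. LGALS3BP, at 138 and 147 FPKM and 142 and 149.5 FPKM with HU and 119 and 137 FPKM and 119 and 127 FPKM with both drugs, was the only member whose groups did not overlap, lower by -0.20 (SE 0.0846, adjusted p = 0.565; 2.87% of all genes had such groups, lower).

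**Figure D5:**
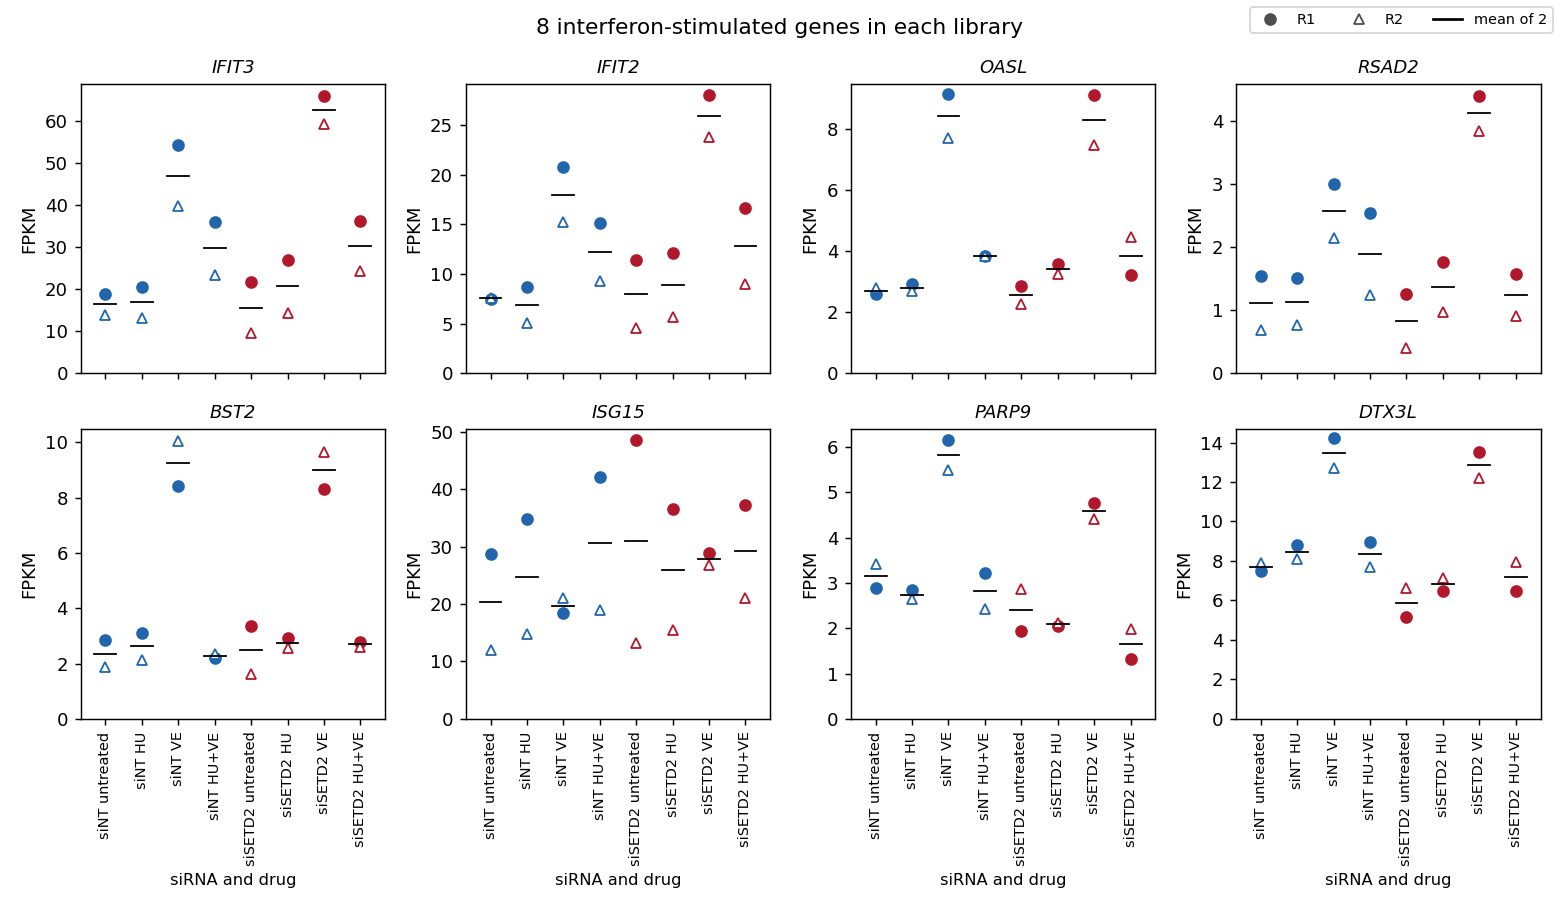
FPKM of 8 genes in each library, by siRNA and drug (blue siNT, red siSETD2). Filled circles are R1, open triangles R2, and the bar is the mean of both. IFIT3 and IFIT2 means are highest with VE-822 alone and next highest with both drugs, BST2 and DTX3L stand highest with VE-822 alone, ISG15 separates by replicate number, and the PARP9 points of siSETD2 lie lower than those of siNT in each treatment.

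SETD2 knockdown gave a call for PARP9, lower, in 1 of the 3 blocked fits, that in 6 groups, and for no other member. Over the 4 treatments together, 0 of 32 were called (3 at an unadjusted p under 0.05, 0 by limma-voom), beside 0.0306% of all genes higher and 0.0993% lower, and the members' median was 0.00. PARP9 had the lowest fold change of the 32. It was at 2.84 and 2.64 FPKM in siNT and 2.05 and 2.12 FPKM in siSETD2 with HU, and at 3.21 and 2.41 FPKM and 1.31 and 1.99 FPKM with both drugs. With the untreated values above, it was lower in siSETD2 in all 6 same-numbered pairs without VE-822 alone, beside 8.77% of all genes. Its groups did not overlap in any of the 4 treatments, VE-822 alone included. In a single treatment 11.2% to 23.1% of all genes were so, lower, and the share for all 4 at once was not counted. The fold change of PARP9 on the log2 scale was -0.35 (SE 0.0837, adjusted p = 0.141), called lower with the block (adjusted p = 0.0355), where 2.22% of all genes were called lower and 1.66% higher. It was not called with the block over all 8 groups (adjusted p = 0.0721). Nor was it called with the block fitted without the VE-822-alone libraries, which averages the other treatments (fold change -0.37, adjusted p = 0.137). Without untreated siSETD2 R2 the unblocked fit called it too (-0.40, adjusted p = 0.0391).

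DTX3L and PARP14 had smaller differences on the same side, -0.22 (SE 0.0694, adjusted p = 0.280 without and 0.0848 with the block) and -0.19 (SE 0.0797, adjusted p = 0.445 and 0.0745). In the 6 pairs without VE-822 alone, HERC6, OAS1, PARP14 and PARP9 were lower in siSETD2 each time, beside 8.77% of all genes, and no member was higher each time, beside 5.78%. Within single treatments no member was called with or without the block, where 0% of all genes were called without it and at most 0.0458% (VE-822, higher) with it. SETD2 itself was not called there either, at log2 fold changes of -1.23 to -0.93. Its adjusted p was 0.784 or more without the block and 0.0846 to 0.293 with it. A missing call within a single treatment therefore does not show that a gene was unchanged. The counts at an unadjusted p under 0.05 were 1 untreated, 0 with HU, 0 with VE-822 and 3 with both drugs, and limma-voom called 0 in each. Members with groups that did not overlap numbered 1 higher and 9 lower untreated (9.64% and 13.5% of all genes), and 1 and 4 with HU (9.85% and 16.3%). With VE-822 they numbered 10 and 3 (19.2% and 23.1%), and with both drugs 3 and 5 (13.1% and 11.2%).

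Within single treatments, the members ranked here are those whose siNT and siSETD2 libraries did not overlap, and members with overlap could lie further out. In untreated cells the furthest apart were OAS3 (-0.40, SE 0.255), DTX3L (-0.34) and SAMD9 (-0.34) on the lower side and IFI35 (0.28) on the higher, all at an adjusted p of 0.999. With VE-822, RSAD2 (0.53, SE 0.322), IFIT2 (0.51) and ISG15 (0.48) were the highest in siSETD2 against siNT and IFITM2 (-0.35), PARP9 (-0.29) and STAT2 (-0.07) the lowest, at an adjusted p of 1. With both drugs PARP9 (-0.53, SE 0.167), OAS3 (-0.41) and HERC6 (-0.37) were the lowest and TRIM25 (0.24), IFIT5 (0.21) and BST2 (0.18) the highest. With HU, IFITM3 (-0.30), PARP9 (-0.28) and DTX3L (-0.28) were the lowest of these and OASL (0.22) was the one higher.

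The response to a drug was also compared between siRNAs. No member was called for the response to VE-822, to HU, or to VE-822 added to HU, with or without the block, and 0% of all genes were. Unblocked, 0 members had an unadjusted p under 0.05 in each of the 3 comparisons, and limma-voom called 0. RSAD2 had the largest difference in its VE-822 response: 0.78 in siNT and 1.53 in siSETD2, a difference of 0.75 (SE 0.455, adjusted p = 1 without and 0.691 with the block). For IFIT3 the VE-822 response was 1.46 in siNT and 2.04 in siSETD2, and for OASL it was 1.35 and 1.39.

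Transcripts of the interferons themselves were near 0. Of 9 interferon genes none passed the filter, and their sum never exceeded 0.615 FPKM in a library, most of it from IFNE, which is expressed constitutively in some epithelia. IFNB1, the type I interferon that most cells make first, had at most 1 fragment in a library and 4 in all 16 together. IFNA1 and IFNA2 had 2 and 1 fragments in all, and IFNL3 had 0, in libraries of 22310806 to 31101932 fragments. Low transcript at collection says nothing of interferon protein in the medium, which was not measured.

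Of 17 receptor, kinase and factor genes, 13 were tested and 5 rose with VE-822 alone, none falling, beside the 11.4% and 13.4% of all genes given above: the receptor chains IFNAR1 (0.30), IFNGR1 (0.86) and IFNGR2 (0.66), and the factors IRF1 (0.64) and STAT3 (0.37), with adjusted p from 0.00243 to 0.0325. IFNGR1, IRF1, SOCS1 and SOCS3 were called lower in R1 than in R2, 4 of 13 beside 22% of all genes. Of 19 genes of nucleic acid sensing and its regulators, 12 were tested, 0 rose and 2 adaptors fell with VE-822, MAVS (-0.49, adjusted p = 0.0182) and TICAM1 (-0.50, adjusted p = 0.00255), a share near the 13.4% of all genes called lower. TREX1 was listed at 0 in every library, and all its exon bases overlap exons of ATRIP. Of 14 genes induced mainly by interferon gamma, 5 were tested and only GBP2, a guanylate-binding protein, was called with VE-822, higher (1.41, adjusted p = 0.000252), beside 11.4% of all genes. No gene of these lists was called for HU, for either comparison of both drugs or for the averaged SETD2 contrast in the fit without a block.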

How the data were processed

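The authors deposited 1 table of FPKM values for 58735 Ensembl genes in 16 libraries. The submitters' processing notes name STAR 2.6.1d, featureCounts 1.5.0-p3, FastQC and DESeq2 1.26.0, and build hg38. Their settings, annotation and strand were not given in the sources used here. FPKM times merged exon length (GENCODE release 29) and 1 factor per library gave whole fragments (tolerance 0.01) for 100% of values, 22310806 to 31101932 per library, and tested members had at least 29 fragments in a library (OAS1, a counting error of 18.6%). The factors, at 0.940 to 1.07 times each library's total, show that the deposited values were already scaled between libraries.

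Values were tested as log2(FPKM + 1), a scale that understates changes of low genes, with limma 3.58.1 (trend) in R 4.3.3. The 13088 genes with a mean of 1 FPKM or more entered 1 fit of 8 group means (8 residual degrees of freedom, prior 2.98), with Benjamini-Hochberg adjustment over all of them per contrast. A second fit, which blocks on replicate number where VE-822 alone is absent (6 groups), has 7 residual degrees of freedom. Its pairing comes from the shared numbers and the data, since R1 minus R2 differences correlated between all 15 pairs of those groups. "The block" in the text means this fit. Fitting was tested on simulated data in which libraries varied independently, with no shared R1 and R2 difference. That test therefore cannot tell how the fits act on the split between sets of libraries seen here. Promoter windows are those of RefSeq, searched in Python 3.11.15. Alternatives covered pseudocount, filter, scaling, limma-voom on recovered fragments, blocks and leaving out each library.

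Named in full are members called in any contrast with or without the block, and per contrast up to 3 with the largest and 3 with the smallest fold change among those without overlap. The members, gene lists and contrasts were chosen with earlier results of these data known. One gene of the pathway lists is not reported here.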

Additional observations from a re-analysis of the deposited data

How the results depend on the processing

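No value of a named gene changed direction in the fits under other settings. Against the untreated R1 and R2 libraries taken apart, without a test, the difference of VE-822 alone had opposite signs for 8 of the 32 genes, none of them among the 16 called: SP110 (-0.64 and 0.04), ISG20 (-0.51 and 0.08), DDX58 (-0.03 and 0.83), OAS1 (-0.01 and 0.91), ISG15 (-0.65 and 0.85), PLSCR1, SAMD9 and TRIM21. Of the counts of called genes, that for VE-822 alone against untreated, 16, fell to 7 with a filter at a mean of 5 FPKM, where fewer genes were tested, and lay between 12 and 18 when single libraries were left out. It was 14 with library-total scaling or a pseudocount of 0.1. Hydroxyurea with VE-822 against untreated had 0 calls, 4 with the replicate block in 6 groups, 1 with a replicate block over all 8 groups, 2 with a replicate block and without the 4 VE-822-alone libraries, and 0 to 2 when 1 library was left out. Hydroxyurea with VE-822 against hydroxyurea had 0 calls, 2 with the replicate block in 6 groups and 0 with either of the other 2 blocks. The averaged SETD2 contrast had 0, 1 with the replicate block in 6 groups, 0 with either of the other 2 blocks, and 0 to 1 when 1 library was left out. A block in 6 or over all 8 groups leaves fold changes as they are and alters their errors. Without the VE-822-alone libraries the averaged SETD2 contrast is a mean of the other treatments, so its fold changes differ. Apart from these and the calls named in the text, the replicate block changed no other call of a member. The other counts stayed at 0 when any 1 library was left out. Over all genes, calls for the averaged SETD2 contrast split 4 higher and 13 lower as deposited, and 12 higher and 5 lower with library-total scaling, while the median of all genes moved by less than 0.1. Where a group lost 1 library, the one that remained was assumed to vary like the other groups. For genes under 1 FPKM, such as MX1 with 2 to 29 fragments, depth limits what can be seen.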
